A study of Rattus norvegicus and Bos taurus with 6 samples.

Results

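The 10 circadian clock genes Clock, Per1, Per2, Per3, Cry1, Cry2, Nr1d1, Nr1d2, Dbp and Ciart were followed in 6 single-nucleus RNA-seq libraries of adipose tissue. They were chosen by symbol, matched in any case, out of 63341 gene symbols or identifiers listed in any of the 6 libraries. All 10 were found in the 5 rat libraries and 9 in the cow library, where PER3 was not analysed here. The rat libraries came from snap-frozen fat of normal male SS/HsdMcwiCrl (Dahl SS) rats, housed at 22 °C with 12 h of light and 12 h of dark. Mesenteric perivascular fat (mesPVAT) was measured once on the 10x Genomics platform, which barcodes nuclei in droplets. On the Parse platform, which barcodes fixed nuclei over rounds of splitting and pooling, mesPVAT, retroperitoneal (RP) fat, thoracic aorta perivascular fat (taPVAT) and subscapular brown fat (BAT) were measured. The cow library, also on the Parse platform, held subcutaneous white fat (WAT) from the flank of a female Holstein. The study's methods describe its cows as lactating, and the light cycle of the cow was not given. The time of day of sampling, the ages and whether the rat libraries shared animals were not given in the sources used here.

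In the mammalian clock, the proteins CLOCK and BMAL1 bind as a pair to E-box sequences and switch on the Per, Cry, Nr1d and Dbp genes. The PER and CRY proteins build up over hours and shut CLOCK and BMAL1 down, while the NR1D receptors (REV-ERBs) repress Bmal1, Clock and Cry1 and the ROR receptors compete with them. DBP and its relatives act on D-box sequences, where NFIL3 opposes them, and CIART is a further repressor of CLOCK and BMAL1. The loop runs in most cell types, fat cells included, and in nocturnal rodents the transcripts of Nr1d1, Dbp and Per3 crest in the light phase or near its end and those of Bmal1, Npas2, Clock and Cry1 in the dark phase or near its end. Per1 can also be induced within minutes to hours by glucocorticoids and by cAMP.

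The E-box is the sequence through which the activators reach these genes, so the rat promoter stretches that hold it are shown, with the letters of the motif in capitals. Windows from 250 bases before to 50 bases after each RefSeq start (assembly GRCr8) were available for 9 of the 10 genes, as 11 windows. The E-box CACGTG, searched on both strands, was found in 2 of the 9 genes and in 6.42% of all 33469 windows. Ciart held 3 copies and Nr1d1 held 1, the latter upstream of the second of its 2 annotated starts. The Ciart and Nr1d1 stretches shown all lie inside the annotated span of their gene. The first Ciart stretch lies at chr2:186112322-186112351, the next at chr2:186112257-186112286 and the Nr1d1 stretch at chr10:84229628-84229657, all on the minus strand.
Ciart, first E-box: tgtatctagagtCACGTGttgccggcaaag
Ciart, next 2 E-boxes: ggaggCACGTGcagagccgCACGTGtctgg
Nr1d1: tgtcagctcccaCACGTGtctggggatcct

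The next stretches show the other inputs of the loop. The Per2 window held the variant E-box CACGTT, present in 4.83% of windows, at chr9:99497038-99497067 on the minus strand. It also held the D-box TTATGTAA, present in 0.893% of windows, at chr9:99497167-99497196. The window of Bmal1, which is not one of the 10 genes, held the nuclear receptor half-site AGGTCA, present in 16.2% of windows, at chr1:176766301-176766327 on the plus strand. Windows of Cry2 and Nr1d1 also held the variant E-box, and that of Nr1d2 the half-site (not shown). A match of letters is a description of the window and not a measured site of binding.
Per2, variant E-box: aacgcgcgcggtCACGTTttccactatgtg
Per2, D-box: ccatgtgcgtcTTATGTAAagagagcgacg
Bmal1, half-site: aaggcagaaagtAGGTCAgggacggag

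The libraries held 2297 to 5887 nuclei and 845316 to 16827260 unique molecular identifiers (UMIs, counted transcripts). The median nucleus held 161 UMIs in 10x mesPVAT and 3530 in cow WAT. No barcode was shared between libraries. The brown fat markers Ucp1 and Cidea summed to 2621 UMIs per 1000000 UMIs (CPM) in taPVAT and 3199 in BAT, against 45.3 to 137 in the other 4 libraries. Per-nucleus depths of the Parse mesPVAT and RP fat libraries do not match those the study gives for these tissues, and both are called here by their labels. Levels are UMIs summed over all nuclei of a library, in CPM, with exact Poisson 95% intervals that cover counting error only. With 1 library per group, no test between tissues was possible. In such sums, fewer cells of a type and less RNA per cell cannot be told apart, and CPM were not scaled to gene length, so levels are compared between libraries within a gene. The cow and 10x libraries were counted on other references than the Parse rat libraries. In folds between cow and rat, species and gene annotation cannot be told apart, and the intervals do not cover this.

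Clock encodes the DNA-binding activator itself. Its level was 156 CPM in 10x mesPVAT, 99.0 in Parse mesPVAT, 66.2 in RP fat, 154 and 161 in taPVAT and BAT, and 142 in cow WAT. RP fat (56 UMIs) and Parse mesPVAT were the low libraries, and the other 4 lay close together. Neighbours in the order cow WAT, taPVAT, 10x mesPVAT and BAT did not differ beyond counting error, with taPVAT at 1.08 times cow WAT (95% interval 0.996 to 1.17). BAT, at the end of this order, was 1.14 times cow WAT (1.06 to 1.22). A Clock UMI was seen in 1.96% of RP fat nuclei and 34.4% of cow nuclei. After each nucleus was thinned to 200 UMIs, the shares ran from 1.40% in RP fat to 3.15% in BAT. Clock genes are used by every cell type, so no nuclei that should lack them were at hand to set a background for these shares.

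The Per genes encode the main repressors. Per1 stood at 41.2 CPM in 10x mesPVAT, 15.7 in Parse mesPVAT, 30.8 in RP fat, 55.9 and 44.2 in taPVAT and BAT, and 100.4 in cow WAT. The cow library was the highest and Parse mesPVAT the lowest, a 6.40-fold range. Per2 stood at 59.8, 47.7, 27.2, 60.4, 41.8 and 75.8 CPM in the same order of libraries. Its range was narrower, 2.79-fold, and ran from RP fat to cow WAT. Per3, which had no value in the cow, stood at 50.1 CPM in 10x mesPVAT, 76.1 in Parse mesPVAT, 30.8 in RP fat, 105 in taPVAT and 112 in BAT. The 2 libraries rich in brown fat markers were thus the highest for Per3, and BAT was 1.07 times taPVAT, with an interval of 0.956 to 1.20.

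Cry1 and Cry2 encode the partners of the PER proteins. Cry1 stood at 19.4, 21.7 and 21.3 CPM in 10x mesPVAT, Parse mesPVAT and RP fat, at 12.7 and 11.4 in taPVAT and BAT, and at 56.3 in cow WAT. No 2 neighbours among the rat libraries differed beyond counting error. Further apart, Parse mesPVAT was 1.71 times taPVAT (1.10 to 2.60) and 1.91 times BAT (1.24 to 2.88). RP fat was 1.87 times BAT (1.05 to 3.17) and 10x mesPVAT 1.70 times BAT (1.03 to 2.73). Cow WAT was 2.59 times Parse mesPVAT (1.86 to 3.72). Cry2 stood at 220 CPM in 10x mesPVAT, 61.6 in Parse mesPVAT, 30.8 in RP fat, 76.5 and 66.2 in taPVAT and BAT, and 114 in cow WAT. The highest value belonged to 10x mesPVAT, 7.15 times that of RP fat.

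Nr1d1 and Nr1d2 encode REV-ERBα and REV-ERBβ, the heme-binding repressors of Bmal1. Nr1d1 showed the widest range of the 9 genes other than Ciart, at 14.8-fold. It stood at 87.3 CPM in 10x mesPVAT, 16.3 in Parse mesPVAT, 5.91 in RP fat, 37.1 and 48.1 in taPVAT and BAT, and 13.8 in cow WAT. The RP fat value rested on 5 UMIs, and cow WAT was 2.34 times RP fat with an interval of 0.989 to 7.28. Nr1d2 stood at 84.0, 28.4, 26.0, 57.8, 48.4 and 54.8 CPM in the same order of libraries. Both receptors were highest in 10x mesPVAT and lowest in RP fat. Thra, which encodes a thyroid hormone receptor, overlaps Nr1d1 by 1061 bases in the RefSeq annotation. Clock, Per2, Cry1 and Cry2 overlap other annotated genes as well, and whether the counting used strand was not given in the sources used here, so reads of overlapping genes may not be told apart.

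Dbp, the D-box activator, and Ciart were sparse. Dbp stood at 1.62 CPM (2 UMIs) in 10x mesPVAT, 7.85 in Parse mesPVAT, 5.91 in RP fat, 12.5 and 9.50 in taPVAT and BAT, and 13.1 in cow WAT. Neighbours in the order of Dbp levels did not differ beyond counting error, while 10x mesPVAT lay below Parse mesPVAT, taPVAT, BAT and cow WAT (cow WAT over 10x mesPVAT 8.13, 2.22 to 67.5). Ciart had 5 UMIs in 10x mesPVAT, 0 in Parse mesPVAT, 1 in RP fat, 6 and 2 in taPVAT and BAT, and 20 in cow WAT. Neighbours in the order of Ciart CPM did not differ beyond counting error, while 10x mesPVAT was 12.8 times BAT (2.09 to 134) and lay above Parse mesPVAT, with a lower bound of 1.23 times. Each Parse library was sequenced as 2 sublibraries of nuclei, and in 0 of 49 pairs did a gene's intervals fail to overlap between them. Genes outside the 10 were not compared in this way.

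**Figure D1:**
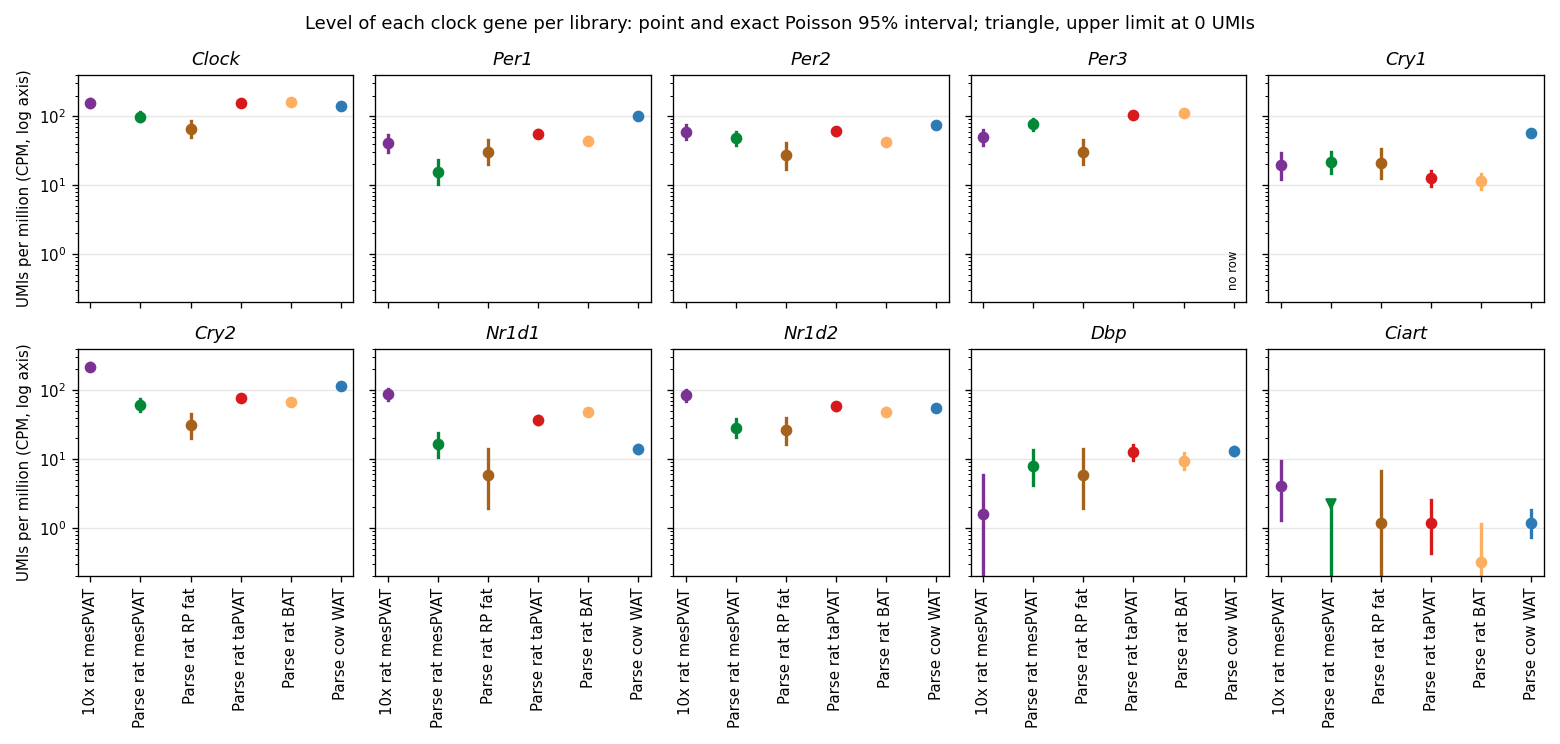
Level of each clock gene in each library, in CPM on a log axis, with exact Poisson 95% intervals as bars. Nr1d1 spans 5.91 CPM in RP fat to 87.3 in 10x mesPVAT, while Clock spans 66.2 to 161.

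Parse mesPVAT and RP fat were each set against BAT, the deepest rat library on the same platform. These folds, and the bound of 2-fold for genes of at least 10 CPM on average, were chosen after the levels had been seen. Nr1d1 in Parse mesPVAT was 0.34 times its level in BAT (0.22 to 0.50) and Per1 was 0.36 times (0.23 to 0.53), and these 2 of 8 genes were past 2-fold lower, beside 12.0% of all genes compared. None was past 2-fold higher, beside 38.8% of all genes. The median fold of the clock genes was 0.646 and that of all genes 1.33. In RP fat, Nr1d1 was 0.12 times its BAT level (0.04 to 0.29), Per3 0.27 times (0.18 to 0.41), Clock 0.41 times (0.31 to 0.54) and Cry2 0.46 times (0.30 to 0.69). These 4 of 8 genes were past 2-fold lower, beside 17.0% of all genes, and again none was higher, beside 47.4%. Cry1 ran the other way in both, at 1.91 times BAT in Parse mesPVAT (1.24 to 2.88) and 1.87 times in RP fat (1.05 to 3.17). Both comparisons share the BAT library, and the Plin1-positive share of nuclei, 69.1% in BAT, was 22.0% in Parse mesPVAT and 9.59% in RP fat. The part of cell makeup in these folds was not tested beyond the split by Plin1 given below.

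taPVAT and BAT, the brown-marker libraries, had levels less than 2-fold apart for the 9 clock genes of at least 10 CPM on average. Their folds of taPVAT over BAT ran from 0.77 for Nr1d1 (0.64 to 0.93) to 1.45 for Per2 (1.22 to 1.71). Ciart, with 6 and 2 UMIs, was below this bound, at 3.72 times (0.66 to 37.7). None of 9 genes was past 2-fold, beside 2.55% of all genes higher in taPVAT and 0.277% lower. Per1 stood at 1.27 times (1.07 to 1.498), Nr1d2 at 1.19 times (1.01 to 1.41) and Cry2 at 1.16 times (1.004 to 1.33). The intervals of 5 of 9 genes thus left out 1, but the share of all genes by this rule was not computed. These intervals hold counting error alone.

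The libraries labelled mesPVAT on the 2 platforms gave different clock levels. In 10x mesPVAT, Nr1d1 was 5.35 times its Parse mesPVAT level (3.49 to 8.50), Cry2 3.57 times (2.83 to 4.53), Nr1d2 2.96 times (2.08 to 4.27) and Per1 2.63 times (1.61 to 4.39). These 4 of 8 genes were past 2-fold higher, beside 24.9% of all genes, and none was past 2-fold lower, beside 27.4%. Per3 was 0.66 times (0.48 to 0.90), and Cry1 was 0.89 times, with Clock at 1.58 times and Per2 at 1.25 times. Fos and Tsc22d3, which answer quickly to stimuli, moved with these values. Fos, an immediate early gene, stood at 296 CPM in 10x mesPVAT and 15.7 in Parse mesPVAT, and Tsc22d3 (GILZ), a glucocorticoid target, at 70.3 and 5.43 CPM. Fkbp5, another glucocorticoid target, did not, at 38.8 and 51.3 CPM. Of 7 such response genes compared, 6 were past 2-fold higher in 10x mesPVAT. Per the study's methods, the reference genome and the isolation of nuclei, sorted before loading for 10x, also differed between the platforms. Platform, batch, reference, isolation and, where they differed, animal and sampling time cannot be told apart here. The comparison also rests on the label of Parse mesPVAT, whose depth did not match that given by the study.

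The other clock genes of a list of 21 were read in the same way. Bmal1, the partner of Clock, stood at 117 CPM in 10x mesPVAT, 30.2 in Parse mesPVAT, 22.5 in RP fat, 36.9 and 34.5 in taPVAT and BAT, and 21.5 in cow WAT. Npas2, which can take the place of Clock, stood at 205, 138, 153, 97.8, 78.0 and 23.8 CPM in that order. Both were highest in 10x mesPVAT, and among the rat libraries Npas2 was lowest in taPVAT and BAT. Nfil3, the D-box repressor, stood at 77.6, 12.7, 8.28, 48.2, 52.1 and 21.0 CPM in that order. Its order over the 5 rat libraries was that of Nr1d1. Rora, the activator that competes with the REV-ERBs, stood at 742, 566, 530, 982, 995 and 82.5 CPM. The PAR-bZIP relatives of Dbp were Tef, at 19.1 to 36.8 CPM, and Hlf, at 3.23 CPM in 10x mesPVAT and 25.8 to 43.0 in the others. Dbp and Hlf were thus both lowest in 10x mesPVAT. Of the genes of this list compared between Parse mesPVAT and BAT, 5 of 18 were past 2-fold lower in mesPVAT and 1 was higher, beside 12.0% and 38.8% of all genes. Between RP fat and BAT, 6 of 19 were lower in RP fat and 1 was higher, beside 17.0% and 47.4%. The higher gene in both was Rorb, an ROR receptor, at 7.13 times BAT in Parse mesPVAT (4.93 to 10.4) and 8.61 times in RP fat (5.69 to 13.1). In 10x mesPVAT, 7 of 17 were past 2-fold higher than in Parse mesPVAT and 3 lower, beside 24.9% and 27.4% of all genes.

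To ask how far the clock genes differed between fat cells and the other cells of the tissue, nuclei with at least 1 UMI of Plin1, which encodes the lipid droplet protein perilipin 1, were set against all other nuclei of the same library. Nr1d1 was higher in the Plin1-positive nuclei in 5 of the 6 libraries. In BAT it stood at 55.7 CPM in Plin1-positive and 9.60 in other nuclei (5.81-fold, 3.11 to 12.2), and in taPVAT at 42.0 and 17.0 CPM (2.47-fold, 1.501 to 4.35). In 10x mesPVAT it stood at 146 and 76.0 CPM (1.92-fold, 1.21 to 2.97) and in cow WAT at 17.6 and 11.3 (1.56-fold, 1.20 to 2.04). Parse mesPVAT showed no such gap, at 15.5 and 16.7 CPM, and RP fat had 1 and 4 UMIs. The brown-marker libraries thus carried the 2 highest folds among the libraries with more than 5 Nr1d1 UMIs.

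Per3 and Clock leaned the same way. Per3 in Plin1-positive nuclei was 2.21 times its level in other nuclei in BAT (1.69 to 2.94), 1.45 times in taPVAT (1.14 to 1.87), 2.05 times in RP fat on 6 and 20 UMIs, and 1.01 times in 10x mesPVAT, and in Parse mesPVAT it stood at 89.5 and 68.8 CPM. Clock was 1.59, 1.22, 1.67, 1.07, 1.09 and 1.70 times, with the cow fold at 1.57 to 1.84. For Clock, taPVAT and BAT were thus the libraries with the least gap. Nr1d2 was 1.74 times in 10x mesPVAT (1.07 to 2.75), 0.635 times in Parse mesPVAT, 1.52 times in RP fat and 1.41 times in cow WAT (1.24 to 1.61), with taPVAT at 1.40 (1.01 to 1.97) and BAT at 1.58 (1.10 to 2.33). Dbp was 1.43 times in cow WAT (1.09 to 1.88) and 2.76 times in BAT (1.02 to 10.5).

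Cry1, Per1, Per2 and Cry2 had folds on both sides of 1 or below it. Cry1 was lower in Plin1-positive nuclei in all 6 libraries, at 0.529 to 0.896 times, and its interval left out 1 in cow WAT alone (0.657 to 0.865). Per2 was 0.743 times in cow WAT (0.660 to 0.835) and 1.59 times in taPVAT (1.14 to 2.27). Per1 ran from 0.571 times in RP fat to 1.59 times in Parse mesPVAT. Cry2 ran from 0.808 times in Parse mesPVAT to 1.42 times in 10x mesPVAT (1.04 to 1.90), with cow WAT at 0.906 times (0.825 to 0.994). The share of all genes with intervals that leave out 1 was not computed, so the next counts only describe these folds. Over the 53 folds of the 9 genes other than Ciart, 16 had an interval above 1 and 3 below, all 3 in cow WAT. These 3, for Per2, Cry1 and Cry2, were read again within the study's limits on depth. This alternative, chosen after seeing the data, left out 142 of the 401 Plin1-positive cow nuclei. The folds were then 0.961 (0.782 to 1.17), 0.887 (0.688 to 1.13) and 0.910 (0.758 to 1.09), and all 3 intervals held 1. The folds of Per2 and Cry1 moved towards 1. That of Cry2 hardly moved, and its interval widened on fewer UMIs (146 and 802, against 732 and 1189). Clock in cow WAT was 1.57 times (1.34 to 1.82) and Nr1d1 1.71 times (1.05 to 2.70) within these limits.

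**Figure D2:**
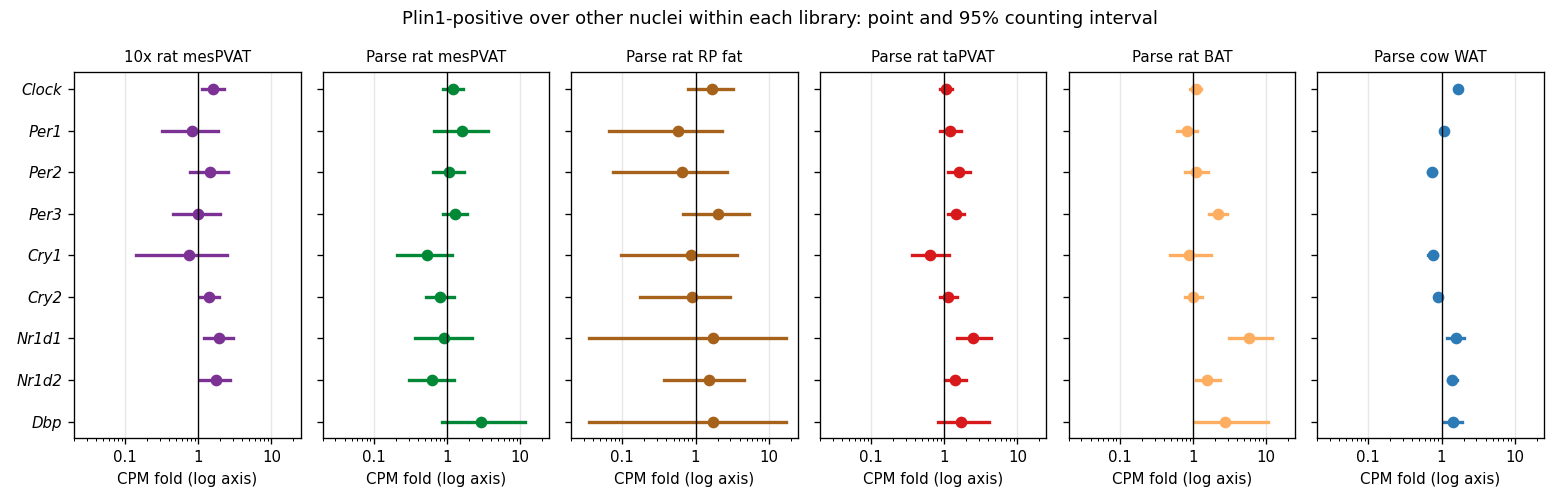
Level of each clock gene in Plin1-positive nuclei over that in the other nuclei of the same library, as a fold on a log axis, with 95% intervals for counting error, without Ciart and, in 10x mesPVAT, without Dbp. Nr1d1 reaches 5.81-fold in BAT, and Cry1 lies below 1 in all 6 libraries.

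These sums were tested with edgeR's quasi-likelihood test, with the library as a block and Benjamini-Hochberg adjustment over 9204 genes. Because the labels do not say whether libraries share animals, the p-values measure the spread between these 6 libraries only. Nr1d1 rose by 1.16 ± 0.32 (log2 fold change ± SE, n = 6 libraries, edgeR adjusted p = 0.0287), higher in 5 of 6 libraries. Clock rose by 0.51 ± 0.15 (edgeR adjusted p = 0.0371), higher in all 6. Dbp rose by 0.96 ± 0.30 (edgeR adjusted p = 0.0458), on 2 to 221 UMIs per library and higher in 5 of 6. These 3 were the clock genes called higher among 8 tested, beside 6.29% of all genes, and none was called lower by edgeR, beside 14.5% (0 also at an unadjusted p under 0.05 and by DESeq2). The median log2 fold change was 0.37 over the 8 clock genes and -0.04 over all genes.

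Nr1d2 had a log2 difference of 0.52 ± 0.21 (edgeR adjusted p = 0.0995), Per2 one of 0.23, Per1 one of 0.14, Cry2 one of 0.14 and Cry1 one of -0.37, with edgeR adjusted p-values of 0.237 to 0.983 for the last 4. Per3, tested in the 5 rat libraries, rose by 0.75 ± 0.24 (edgeR adjusted p = 0.0372, beside 9.05% of 9823 genes called higher). Ciart did not pass the filter on low counts. The calls depended on single libraries: without BAT or without taPVAT, none of the clock genes passed in edgeR (3 in each at an unadjusted p under 0.05). Over the 6 fits that each left out 1 library, Nr1d1 passed in 3, with adjusted p-values of 0.0199 to 0.109, Clock in 2 (0.0455 to 0.111) and Dbp in 1 of 5 (0.0443 to 0.152). Their log2 differences stayed above 0 in every fit.

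The split by Plin1 also split nuclei by depth and was not clean. The median Plin1-positive nucleus held more UMIs than the median other nucleus in every library, from 248.5 against 153 in 10x mesPVAT to 8295 against 3122 in cow WAT. Among nuclei whose leading marker class was immune, which should lack Plin1, 2.68% to 15.6% held a Plin1 UMI. Plin1 was itself among the markers of the adipocyte class, so the Plin1 shares of all classes are in part set by how the classes were defined. Among nuclei of the adipocyte class, 92.5% held a Plin1 UMI in taPVAT, 95.1% in BAT, 76.9% in Parse mesPVAT, 75.6% in cow WAT and 68.5% in RP fat. In 10x mesPVAT only 24.0% did, so most adipocyte-class nuclei of that library were counted among its other nuclei. The part of depth in these folds was not tested, but shares at equal depth were read. With nuclei thinned to 200 UMIs, the share holding a Nr1d1 UMI in Plin1-positive and other nuclei was 0.965% and 0.120% in BAT. It was 0.673% and 0.466% in taPVAT and 0.499% and 0.211% in cow WAT. The order was the reverse in 10x mesPVAT (1.62% and 1.80%), Parse mesPVAT (0.161% and 0.363%) and RP fat (0% and 0.0759%). These shares were given no intervals. Adipocyte nuclei were also taken by marker class, which counts Plin1 UMIs too and so is not independent of the split. Nr1d1 then rose by 1.91 on the log2 scale (edgeR adjusted p = 0.00313), while Clock stood at 0.42 (adjusted p = 0.151) and Dbp at 1.01 (adjusted p = 0.0636).

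Of the 21 other clock genes, 19 were tested in the same fit. Nfil3 rose in Plin1-positive nuclei by 1.09 ± 0.33 (edgeR adjusted p = 0.0400) and Rorb fell by 0.97 ± 0.26 (edgeR adjusted p = 0.0275). They were the only 2 called, beside 6.29% of all genes called higher and 14.5% called lower. The median log2 difference of the 19 was -0.22. Bmal1 stood at -0.24, Npas2 at -0.39, Rora at 0.15, Tef at 0.33 and Hlf at 0.57, with edgeR adjusted p-values of 0.0823 to 0.650. Bmal1 in Plin1-positive nuclei was 0.558 times its level in other nuclei in BAT (0.410 to 0.768) and 0.623 times in taPVAT (0.450 to 0.873), against 1.04 times in 10x mesPVAT and 1.13 times in cow WAT. Of 6 response genes tested, Egr1 alone was called, with a log2 difference of -0.74 (edgeR adjusted p = 0.0408), beside the same 14.5% of all genes called lower. Fkbp5 stood at -0.38 and Fos at -0.26.

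The fold of Nr1d1 was further compared between the 2 Parse rat libraries titled BAT (taPVAT and BAT) and the 2 titled WAT (mesPVAT and RP fat), a comparison added after seeing the data. The difference of the log2 fold changes was 2.13 ± 0.67 (edgeR interaction term, adjusted p = 0.0316), beside 6.97% of all genes with a larger fold in the brown-marker libraries. It rested on 5 Nr1d1 UMIs in RP fat. With adipocyte nuclei taken by marker class, it was 1.39 with an adjusted p of 0.310 and was not called. The same difference was 1.18 for Nr1d2 (edgeR adjusted p = 0.109), 0.60 for Per3 (edgeR adjusted p = 0.294) and 0.00 for Clock. The Plin1 split also set endothelial marker sums less far apart in the WAT-titled libraries. In Plin1-positive and other nuclei they were 1226 and 1380 CPM in RP fat and 1165 and 2216 in Parse mesPVAT. They were 1248 and 3898 in taPVAT and 1247 and 5709 in BAT. The median nucleus held 213 and 346 UMIs in RP fat and Parse mesPVAT, against 1246 and 1706 in taPVAT and BAT. The part of this in the differences was not tested.

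Nuclei were also assigned to the class with the most marker UMIs. Nr1d1 in the adipocyte class stood at 137 CPM in 10x mesPVAT, 20.1 in Parse mesPVAT, 43.9 in taPVAT and 58.3 in BAT, with 24.0 in cow WAT and no UMI in RP fat. In endothelial nuclei it stood at 0, 13.2, 16.6, 14.5 and 11.0 CPM in these 5 libraries, and in adipose stem and progenitor cells (ASPC) at 16.2, 7.35, 21.0, 16.9 and 12.8 CPM. By these values the adipocyte class was the highest of the 3 in these 5 libraries, and the other classes were not compared. Parse mesPVAT held 27 Nr1d1 UMIs over all its nuclei, so its class values rest on few UMIs. The 0 in 10x mesPVAT came from 144 endothelial nuclei, in a library with a median of 161 UMIs per nucleus. Per3 in BAT stood at 127 CPM in adipocytes and 52.1 in endothelial nuclei. RP fat had 1 Per3 UMI in adipocytes, at 15.1 CPM (0.382 to 84.1), and 12 in endothelial nuclei, at 150 CPM (77.7 to 263), while its Plin1 split gave the higher Per3 value to Plin1-positive nuclei.

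In the cow library, the deepest one, the classes separated for several genes. Clock stood at 235 CPM in adipocytes (218 to 252) and at 102 to 130 in the other classes. Per2 stood at 40.1 CPM in adipocytes (33.4 to 47.7), 52.8 in immune nuclei, 76.9 in endothelial nuclei, 88.3 in ASPC and 168 in mural cells (142 to 197), the smooth muscle cells and pericytes of the vessel wall. Cry1 was likewise low in adipocytes, at 35.3 CPM, and high in mural cells, at 92.3, with immune nuclei at 72.6. These class levels were taken over all cow nuclei and were not read within the study's limits on depth. Within those limits the Plin1 folds of Per2 and Cry1 were 0.961 (0.782 to 1.17) and 0.887 (0.688 to 1.13). That of Clock was 1.57 (1.34 to 1.82). The part of depth in the class levels was not tested.

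**Figure D3:**
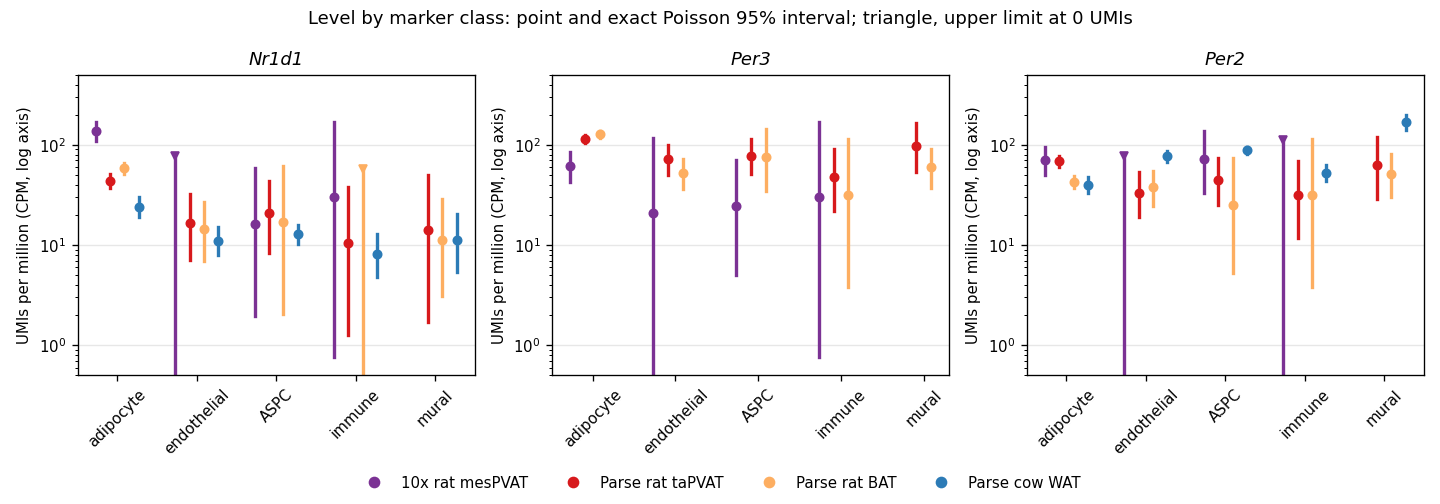
Levels of Nr1d1, Per3 and Per2 by marker class in 4 libraries, in CPM on a log axis with exact Poisson 95% intervals, for classes with at least 20000 UMIs (triangles mark the upper limit of a count of 0). Nr1d1 in 10x mesPVAT is highest in the adipocyte class (137 CPM), while Per2 in cow WAT is highest in the mural class (168 CPM).

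The balance of day-phase and night-phase transcripts was read as the ratio of summed UMIs of Per1, Per2, Per3, Nr1d1, Nr1d2, Dbp and Ciart to those of Clock and Cry1. The day-phase group was set from E-box and D-box targets among the members, the night-phase group as Clock and Cry1, and Cry2 was in neither. Cry1 and Cry2 are also switched on through E-boxes, so the groups do not follow from that rule alone. The names are labels of these groups. The phase of each gene was not measured here, and no time is read from the ratio. It was 1.87 in 10x mesPVAT (1.58 to 2.22), 1.59 in Parse mesPVAT (1.33 to 1.91), 1.46 in RP fat (1.08 to 1.99), 1.98 in taPVAT (1.82 to 2.15) and 1.76 in BAT (1.63 to 1.90). In cow WAT, with 6 day-phase genes, it was 1.31 (1.25 to 1.37). The intervals of the 5 rat libraries all overlapped each other. Overlap does not show that ratios are alike, and the ratios were not tested against each other. Without Per3, so that all libraries had the same genes, the ratio was 1.59, 0.96, 1.11, 1.35, 1.11 and 1.31 in this order. Parse mesPVAT was then lowest and 10x mesPVAT, labelled as the same tissue, highest.

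Within libraries, the intervals of Plin1-positive and other nuclei did not overlap in BAT, taPVAT and cow WAT. It was 1.86 in Plin1-positive nuclei of BAT (1.72 to 2.02) and 1.19 in other nuclei (0.964 to 1.47), and 2.11 (1.92 to 2.31) against 1.45 (1.18 to 1.78) in taPVAT. Without Per3, the intervals stayed apart in taPVAT, at 1.44 (1.31 to 1.59) against 0.982 (0.785 to 1.23). In BAT they met only at their ends, at 1.16 (1.063 to 1.27) against 0.846 (0.672 to 1.064). The difference between the 2 kinds of nuclei was not tested, so this overlap does not show that the BAT gap rests on Per3. In cow WAT, where Per3 had no value, the ratio was 1.14 in Plin1-positive nuclei (1.07 to 1.22) and 1.46 in other nuclei (1.37 to 1.55). Within the study's limits on depth the cow intervals overlapped, at 1.45 (1.25 to 1.68) against 1.54 (1.43 to 1.66). In the other 3 libraries the intervals overlapped, with 1.85 and 1.88 in 10x mesPVAT.

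Ratios of single pairs ran over wider ranges than the sum did, but they rest on fewer UMIs and so carry more counting error. Nr1d1 over Clock was 0.560 in 10x mesPVAT, 0.165 in Parse mesPVAT, 0.0893 in RP fat, 0.241 and 0.298 in taPVAT and BAT, and 0.0975 in cow WAT. Dbp over Clock was 0.0104, 0.0793, 0.0893, 0.0817, 0.0588 and 0.0925 in that order. 10x mesPVAT was thus the highest for the first ratio and the lowest for the second, although both numerators are day-phase genes. Its Dbp ratio rested on 2 Dbp UMIs (0.00125 to 0.0379). The Nr1d1 ratio of RP fat rested on 5 Nr1d1 UMIs (0.0279 to 0.221). Per3 over Clock, in the 5 rat libraries, was 0.321, 0.768, 0.464, 0.681 and 0.693, with 10x mesPVAT again lowest. Cry1 over Clock was 0.124, 0.220, 0.321, 0.0830, 0.0706 and 0.396, highest in cow WAT.

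The ratio of Nr1d1 to Bmal1, a repressor to its target, was 0.745 in 10x mesPVAT, 0.540 in Parse mesPVAT, 0.263 in RP fat, 1.01 and 1.39 in taPVAT and BAT, and 0.645 in cow WAT. In BAT it was 1.83 in Plin1-positive nuclei (1.502 to 2.23) and 0.175 in other nuclei (0.0799 to 0.347), and in taPVAT 1.27 and 0.321. The numerator was higher and the denominator lower in the Plin1-positive nuclei of both libraries.

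Outside the clock lists, the 3 genes whose log2 CPM followed the summed day-phase genes most closely over the 6 libraries were Mark3, Kcmf1 and Ubqln1, with Pearson's r of 0.994, 0.993 and 0.993 among 4749 genes compared. The sum, without Per3, was 278 CPM in 10x mesPVAT, 116 in Parse mesPVAT, 97.0 in RP fat, 225 and 192 in taPVAT and BAT, and 259 in cow WAT. With 6 points that differ in platform, depth and species, and with the genes picked as the highest of many, these values describe the likeness only.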

How the data were processed

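UMI counts of each gene in each nucleus were used as deposited by the authors, without normalization. Per the study's methods, the authors split Parse reads by species, aligned them to GRCr8 or ARS-UCD1.3 with split-pipe, and used Cell Ranger with Rnor_6.0 for the 10x Genomics library. The 10 genes and the other lists were chosen with earlier results of these data known. Of the other lists, Bmal1, Npas2, Nfil3, Rora, Tef, Hlf, Fkbp5, Tsc22d3, Fos and the most raised and most lowered called clock genes were named, with the 3 genes of highest Pearson's r among genes with at least 20 UMIs in every library. Egr1, Thra and the genes of the interaction term were named after their values or positions were seen.

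UMIs were summed over all deposited nuclei (doublets were not removed) and scaled to CPM. Poisson and binomial intervals (95%) cover counting error only, and a count of 0 allows up to 3 UMIs. Shares were recomputed after thinning nuclei to 200 UMIs (nuclei below this were left out). Marker classes needed at least 2 marker UMIs and no tie, and Plin1 was among the adipocyte markers. Sums of Plin1-positive and other nuclei (12 sums) were tested with edgeR 4.0.16 (R 4.3.3), with library as a block, over genes matched by symbol in all 3 annotations, without Plin1. Its p-values are bounded below by those of a Poisson fit. Each library holds both kinds of nuclei, which is where the pairing comes from. On simulated sums of 9204 genes the test recovered 72% of 2-fold and 99% of 4-fold changes, with 8 false calls. How far these rates hold for the measured sums was not tested. There the Nr1d1 fold of Plin1-positive over other nuclei ran from 0.926 in Parse mesPVAT to 5.81 in BAT. Alternatives were DESeq2 1.42.0, other scalings, filters and nuclei, and leaving out each library. Python 3.11.15, numpy 2.4.6, scipy 1.17.1, pandas 2.3.3 and matplotlib 3.10.9 were used. Promoter windows and overlaps came from RefSeq (GRCr8). The interaction term of 1 further gene that passed is not reported here.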

Additional observations from a re-analysis of the deposited data

Results flagged for a closer look

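The fold of Plin1-positive over other nuclei differed between the 2 Parse rat libraries titled BAT and the 2 titled WAT for genes among the 33 tested of the clock and response lists, of which 6 are given here, beside 6.97% of all genes with a larger fold in taPVAT and BAT, by an edgeR interaction term added after seeing the data, in which each side holds 2 libraries. The difference of log2 folds was 2.13 for Nr1d1 (adjusted p = 0.0316, and 1.39 with an adjusted p of 0.310 by marker class), 2.31 for Nfil3 (adjusted p = 0.0228) and 2.14 for Hlf (adjusted p = 0.00665). It was 3.67 for Bhlhe40 (adjusted p = 0.000122), 1.72 for Nampt (adjusted p = 0.0024) and 2.15 for Nr4a1 (adjusted p = 0.000857). These 6 were larger in taPVAT and BAT. The white side rested on few UMIs in the Plin1-positive nuclei of RP fat. These were 1 for Nr1d1, 2 for Nfil3, 2 for Hlf, 0 for Bhlhe40, 5 for Nampt and 6 for Nr4a1. The Plin1 split also set endothelial markers less far apart in RP fat and Parse mesPVAT, which were shallower than taPVAT and BAT. The part of this in the differences was not tested. Bhlhe40 encodes an E-box repressor and Nampt the enzyme that limits NAD salvage.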

How the results depend on the processing

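The direction in Plin1-positive nuclei held in all 17 alternatives for Nr1d1 and Clock and in the 14 in which Dbp was tested. With no scaling beyond library size the median log2 difference of all genes moved from -0.04 to -0.14 and 1 clock gene was called (Nr1d1) in place of 3. By marker class 1 was called too, and without the library block 0 of the clock genes and 0 of all genes were called in edgeR, higher or lower (884 at an unadjusted p under 0.05). Leaving out each library gave 0 to 2 clock genes, 141 to 834 genes called higher (main 579) and 351 to 1633 called lower (main 1338), with the lowest counts without taPVAT and then without BAT. Genes called higher numbered 1102 by marker class, 889 in the 5 rat libraries and 1193 in the 4 rat Parse libraries, a set chosen after seeing the data, and genes called lower numbered 715 in the 5 Parse libraries. DESeq2 called the same number of clock genes, 3. The other clock genes called higher numbered 0 to 5 over the alternatives. Uncalled differences that changed sign were those of Bmal1 by marker class (0.025), Rora with at least 2 Plin1 UMIs (-0.021), Fkbp5 without the block (0.24), and the brown against white differences by marker class of Clock (0.41) and Dbp (0.32).

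The day-phase to night-phase ratio depended on its genes more than on the nuclei used. With Bmal1 and Npas2 in the denominator it was 0.659 in 10x mesPVAT, 0.665 in Parse mesPVAT, 0.486 in RP fat, 1.09 and 1.07 in taPVAT and BAT, and 1.06 in the cow. As geometric means it was 0.470, 0.282, 0.333, 0.622, 0.489 and 0.238. Without Per3 it was 0.960 in Parse mesPVAT, 1.35 in taPVAT and 1.11 in BAT. Without Per2 it was 1.53 in 10x mesPVAT, 1.195 in Parse mesPVAT, 1.62 in taPVAT, 1.52 in BAT and 0.925 in the cow. Without Nr1d1 it was 1.37 in 10x mesPVAT, 1.76 in taPVAT, 1.48 in BAT and 1.24 in the cow. Without Nr1d2 it was 1.39, 1.63, 1.48 and 1.03 in the same libraries. Without Per1 it was 1.65 in taPVAT, 1.505 in BAT and 0.801 in the cow, and without Dbp 1.24 in the cow. With nuclei of at least 500 UMIs it was 1.31 in 10x mesPVAT, and within the study's limits on depth 1.52 in the cow and 1.45 in its Plin1-positive nuclei, the latter an alternative chosen after seeing the data.

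Depth set the shares of nuclei with a UMI. Their median over genes and libraries was 2.29%, against 4.61% in nuclei of at least 500 UMIs and 0.704% after thinning to 200 UMIs, and 43 of 59 shares moved beyond their interval after thinning. Of 59 levels, 19 moved beyond their interval when the most abundant gene and mitochondrial genes left the total, 7 with at least 500 UMIs and 4 within the study's limits. No paired analysis was possible because the labels give replicate 1 alone in each group, other than the pairing of nuclei within a library.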
